A study of Mus musculus with 8 samples.

Results

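Platelets have no nucleus, and the messenger RNA they carry is largely what the megakaryocyte (MK), their parent cell in the bone marrow, loaded into them. The 8 genes described here encode transcription factors that build the MK lineage, namely Gata1, Nfe2, Gfi1b, Fli1, Tal1, Zfpm1, Runx1 and Mef2c. They were chosen by name, and 7 of the 8 were matched by symbol in a table of 43548 genes, whereas Zfpm1 was not analysed here. RNA was sequenced from washed platelets of 4 TNFdARE mice, labelled TNFdAre +, and 4 littermate controls, labelled TNFdAre -, all untreated at baseline, aged 8 to 12 weeks and with 2 females and 2 males per group. In TNFdARE animals the germline deletion of AU-rich elements from Tnf raises TNF-α in any cell that makes it, not in the MK lineage alone, and whether 1 or 2 alleles were altered is not given in the sources used here. The library names of the controls begin with B6, and by the study's methods the TNFdARE line was backcrossed to C57BL/6J. The labels give all 8 libraries the same batch entry, without saying which step it refers to. Some label text speaks of 3 mice per group or of older males, which belongs to other experiments of the study or contradicts the sample list.

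GATA1 is a zinc finger protein that switches on platelet genes, and ZFPM1 (FOG1) is its cofactor. TAL1 is a basic helix-loop-helix protein that works in a complex with GATA factors, and GFI1B is a zinc finger repressor. FLI1 is an ETS-family factor and RUNX1 the DNA-binding subunit of core-binding factor, both required for MK maturation. NFE2 is the large subunit of a leucine zipper dimer needed for the last step, platelet release, and MEF2C is a MADS-box factor of MKs and lymphoid cells. GATA1, TAL1, NFE2 and GFI1B also serve the red cell lineage, and RUNX1, FLI1 and MEF2C are made in leukocytes too.

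To show the letters these proteins read, the RefSeq promoter windows (GRCm38.p6, 250 bases before to 50 after a start site, in the direction of transcription) of 3 genes are given, for 2 of the factors and for 1 platelet gene that they regulate. Capitals mark GATA letters, which are AGATAA with T also allowed as the first letter and G as the last, on either strand. They also mark ETS letters, which are CCGGAA with A also allowed as the second letter, on either strand. No 2 of the marked matches overlap. The windows are chrX:7967861-7968160 on the minus strand for Gata1, chr2:28621933-28622232 on the minus strand for Gfi1b and chr11:70638872-70639171 on the plus strand for Gp1ba, which encodes the von Willebrand factor receptor subunit of platelets.
Gata1: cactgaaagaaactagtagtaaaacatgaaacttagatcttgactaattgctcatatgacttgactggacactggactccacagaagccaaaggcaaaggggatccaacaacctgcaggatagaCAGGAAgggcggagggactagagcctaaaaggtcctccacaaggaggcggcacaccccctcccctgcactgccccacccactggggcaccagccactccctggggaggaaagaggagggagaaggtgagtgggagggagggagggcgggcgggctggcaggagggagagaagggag
Gfi1b: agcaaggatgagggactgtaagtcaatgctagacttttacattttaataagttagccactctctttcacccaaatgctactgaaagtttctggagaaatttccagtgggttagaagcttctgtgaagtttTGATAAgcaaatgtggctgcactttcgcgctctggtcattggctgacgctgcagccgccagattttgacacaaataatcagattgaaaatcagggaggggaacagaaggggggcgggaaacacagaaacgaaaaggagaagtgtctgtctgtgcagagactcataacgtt
Gp1ba: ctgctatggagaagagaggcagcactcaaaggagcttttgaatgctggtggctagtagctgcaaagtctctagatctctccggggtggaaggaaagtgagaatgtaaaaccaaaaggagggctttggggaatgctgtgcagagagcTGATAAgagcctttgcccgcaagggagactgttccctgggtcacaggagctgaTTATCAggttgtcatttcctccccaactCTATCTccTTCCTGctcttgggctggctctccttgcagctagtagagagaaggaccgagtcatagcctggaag
The Gata1 window held 1 ETS match and the Gfi1b window 1 GATA match, whereas the Gp1ba window held 3 GATA matches and 1 ETS match. GATA letters were found in 29.8% of the 32851 windows of the table and in 8 of the 24 windows of the MK and platelet genes listed below (33.3%). Of the 9 windows of the 5 factors in the table, 2 held GATA letters, 4 ETS letters and 1 the RUNX letters given below, and 3 windows of Tal1 and Mef2c held none of the 4 motifs. The windows printed were chosen because they hold matches, and 3 GATA matches is the most in any window of the factors or of the listed MK and platelet genes. ETS letters were found in 41.4% of all windows and in 10 of those 24 (41.7%), both shares close to those of all promoters. The letters TGTGGT on either strand, read by RUNX factors, were in 16.8% of all windows and in 2 of the 24. The core of the NFE2 site, TGAGTCA on either strand, was in 5.2% of all windows and in 0 of the 24. A match is a description of the letters and not evidence of binding. The windows of Fli1 and Nfe2 were not in the table.

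The values are FPKM, mapped fragments scaled to transcript length and to library size, so levels of different genes could be compared. The libraries differed in how many genes they listed, from 1479 to 2742 genes above 0 in control mice, and 818, 3187, 4917 and 1225 in TNFdARE mice 1 to 4. Sequencing depth is unknown, since read numbers are not in the table. The rRNA-overlapping gene AY036118 took 33.7% to 67.7% of the summed FPKM, the latter in TNFdARE mouse 1. Tnf itself was listed at 0 in all 8 libraries and gave no check of the genotype. The same was true of the housekeeping gene Hprt, so a listed 0 cannot be read as absence. Defining platelet genes were abundant in every library, with Pf4 between 195 and 472 FPKM and Ppbp between 120 and 408 FPKM.

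Nfe2 (ENSMUSG00000058794; GRCm38 chr15:103248212-103258403, minus strand) stood out as the factor that every library carried. Its level was 26.4, 8.06, 17.0 and 17.4 FPKM in control mice 1 to 4 and 55.4, 9.47, 9.76 and 25.3 FPKM in TNFdARE mice 1 to 4. The means were 17.2 ± 7.47 FPKM in controls and 25.0 ± 21.6 FPKM in TNFdARE platelets (SD, n = 4 each), and the ranges overlapped. Within each library Nfe2 exceeded 80.1% to 93.3% of the genes above 0. It was the only 1 of the 7 factors above 0 in all 8 libraries, as were 409 of the 6566 genes above 0 in any. Nfe2 was higher than Tal1, Fli1, Mef2c, Runx1 and Gfi1b in 8 of 8 libraries and higher than Gata1 in 7 of 8, and it made up 41.3% to 78.8% of the summed FPKM of the 7 factors.

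Gata1 (ENSMUSG00000031162; GRCm38 chrX:7959260-7978071, minus strand) was above 0 in 7 libraries. Control mice 1 to 4 had 5.17, 1.79, 0.128 and 7.87 FPKM, and TNFdARE mice 1 to 4 had 0, 3.66, 2.73 and 33.0 FPKM. The TNFdARE group therefore held both the highest and the lowest value, TNFdARE mouse 4 being 4.19 times the next library, control mouse 4. Within libraries the gap was smaller, since Gata1 exceeded 87.9% of the genes above 0 in TNFdARE mouse 4 and 85.4% in control mouse 4. Its partner Tal1 (ENSMUSG00000028717; GRCm38 chr4:115056426-115071755, plus strand) lay within a narrower range in controls, at 1.93, 0.746, 3.05 and 2.10 FPKM in mice 1 to 4. In TNFdARE mice 1 to 4 Tal1 was at 49.4, 1.44, 2.25 and 0 FPKM. TNFdARE mice 2 and 3 lay within the control range for both genes, while mice 1 and 4 lay outside it on opposite sides, mouse 1 with Tal1 high and Gata1 at 0 and mouse 4 with Gata1 high and Tal1 at 0.

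Gfi1b (ENSMUSG00000026815; GRCm38 chr2:28609450-28621982, minus strand) was listed at 0, 0.453, 2.82 and 0.800 FPKM in control mice 1 to 4, and at 0 in TNFdARE mice 1, 2 and 4 and 0.814 FPKM in TNFdARE mouse 3. It was thus above 0 in 3 control mice and 1 TNFdARE mouse, and was the only factor with its highest value in a control mouse. Fli1 (ENSMUSG00000016087; GRCm38 chr9:32422204-32542861, minus strand) had the opposite listing, above 0 in 1 control mouse and 3 TNFdARE mice. Control mouse 4 had 1.04 FPKM, TNFdARE mice 1 to 3 had 8.20, 0.874 and 0.659 FPKM, and Fli1 was listed at 0 in the other 4 libraries. Mef2c (ENSMUSG00000005583; GRCm38 chr13:83504034-83667080, plus strand) had 0.344 and 0.444 FPKM in control mice 3 and 4, 6.95, 0.274 and 0.267 FPKM in TNFdARE mice 1 to 3, and 0 elsewhere. Apart from TNFdARE mouse 1, therefore, Fli1 did not exceed 1.04 FPKM and Mef2c did not exceed 0.444 FPKM. Runx1 (ENSMUSG00000022952; GRCm38 chr16:92601466-92826149, minus strand) was above 0 in 2 control mice, 3 and 4, at 1.63 and 1.53 FPKM, and in 3 TNFdARE mice, 2 to 4, at 1.12, 0.298 and 3.02 FPKM. Antisense genes overlap Fli1 (Gm27201) and Runx1 (Gm26626), and both were listed at 0 in all 8 libraries, as was Gm22060, a small nuclear RNA gene within Fli1 on its own strand. A further 4 unconfirmed gene models on that strand of Fli1 were not analysed here, so reads shared with them cannot be told apart. No transcript of another gene matched those of the 7 factors at 95% identity over at least 150 bases.

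**Figure D1:**
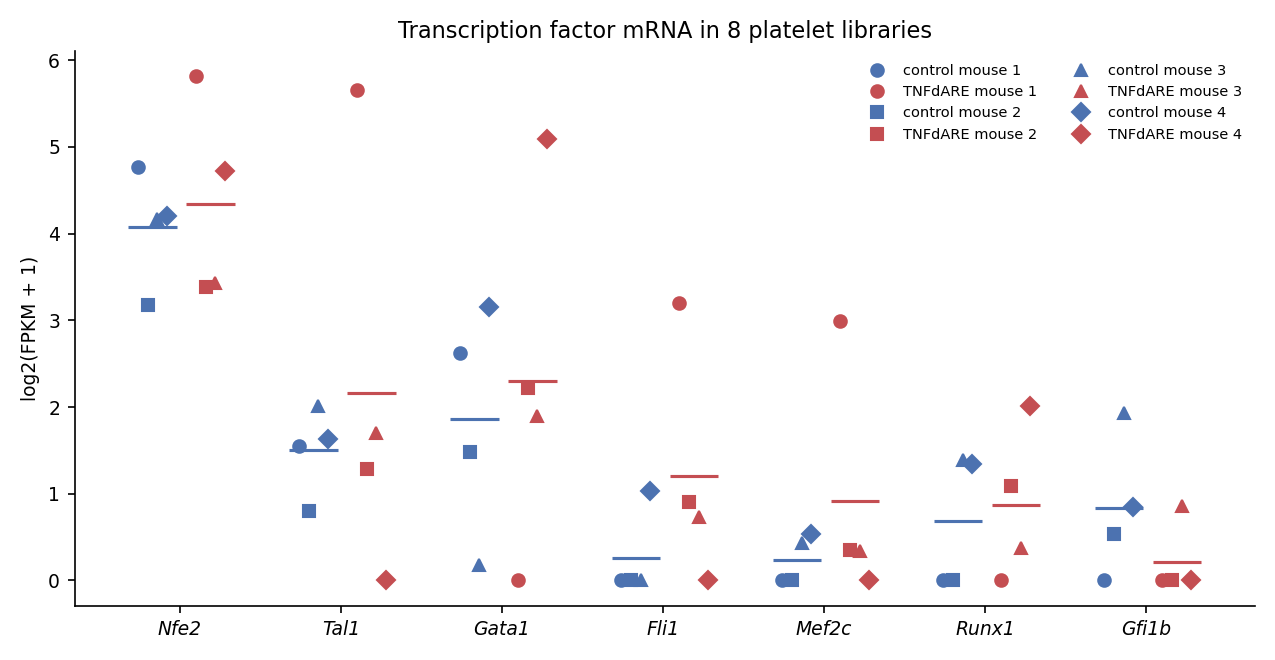
Level of the 7 transcription factor mRNAs in each platelet library, as log2(FPKM + 1), with each point 1 mouse and each horizontal line the group mean; genes are ordered by mean FPKM. Nfe2 is above 0 in all 8 libraries, TNFdARE mouse 1 is the highest point for Nfe2, Tal1, Fli1 and Mef2c, and TNFdARE mouse 4 for Gata1 and Runx1.

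By mean FPKM over the 8 libraries the order was Nfe2 (21.1), Tal1 (7.61), Gata1 (6.79), Fli1 (1.35), Mef2c (1.04), Runx1 (0.951) and Gfi1b (0.610). Except for Nfe2 these means average listed zeros, and most rest on 1 library. Without TNFdARE mouse 1 the mean was 1.64 FPKM for Tal1, 0.368 FPKM for Fli1 and 0.190 FPKM for Mef2c. Without TNFdARE mouse 4 it was 3.05 FPKM for Gata1, and without control mouse 3 it was 0.295 FPKM for Gfi1b. By the median, Gata1 (3.19 FPKM) stood above Tal1 (2.01 FPKM). Neighbours in the order were compared within libraries by a two-sided exact sign-flip permutation test on log2(FPKM + 1), with Benjamini-Hochberg adjustment over the 6 pairs. Nfe2 exceeded Tal1 by 2.38 ± 1.29 on that scale (SD, n = 8, exact permutation p = 0.0078, adjusted 0.047), and was higher in 8 of 8 libraries. This p is the smallest that 8 libraries allow, and it is not independent evidence of the order, since the pairs were set by ranking the same 8 libraries. The other 5 neighbour pairs did not differ beyond their spread (adjusted p from 0.45 to 0.77), for example Tal1 and Gata1 (-0.25 ± 3.06, SD, n = 8, exact permutation p = 0.77).

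The question of the design was whether platelets made under raised TNF-α carried these mRNAs at other levels. None of the 7 did so beyond the spread between mice. Genes with a mean of at least 1 FPKM over the 8 mice, 1534 in all and 5 of them factors, were compared on log2(FPKM + 1) with limma, a linear model per gene whose variance estimates borrow from all genes, with Benjamini-Hochberg adjustment over the 1534. Of the 5 tested factors 0 had an adjusted p under 0.05 and 0 an unadjusted p under 0.05, where 0.00% and 4.50% of all tested genes did (1.76% higher and 2.74% lower in TNFdARE platelets at the unadjusted threshold). The difference, TNFdARE minus control, was 0.26 for Nfe2 (standard error 0.65, 95% interval -1.15 to 1.66, adjusted p = 0.94, limma). It was 0.44 for Gata1 (standard error 1.02, interval -1.76 to 2.65, adjusted p = 0.93, limma) and 0.66 for Tal1 (standard error 1.03, interval -1.57 to 2.89, adjusted p = 0.89, limma). For the less abundant factors it was 0.95 for Fli1 (interval -0.75 to 2.65, adjusted p = 0.86) and 0.68 for Mef2c (interval -0.98 to 2.34, adjusted p = 0.87). The intervals of all 5 include both a fall and a rise, so no difference was detectable at this precision, and they do not show that levels were equal. All 5 differences were above 0 while the median over the 1534 genes was -0.30, but Fli1 and Mef2c reached the mean of 1 FPKM through TNFdARE mouse 1, so the shared sign is no support for a shift.

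Runx1 and Gfi1b were under the mean of 1 FPKM. Their differences were 0.18 for Runx1 (two-sided exact permutation p = 0.74) and -0.61 for Gfi1b (exact permutation p = 0.37), where 4 mice against 4 cannot go below 0.029. In a fit without the filter the interval was -1.14 to 1.50 for Runx1 and -1.74 to 0.51 for Gfi1b. Exact permutation p-values for the other factors were 0.71 for Nfe2, 0.77 for Gata1, 0.80 for Tal1, 0.37 for Fli1 and 0.63 for Mef2c. The groups overlapped for all 7 factors, and they did not overlap for 3.32% of the genes tested.

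**Figure D2:**
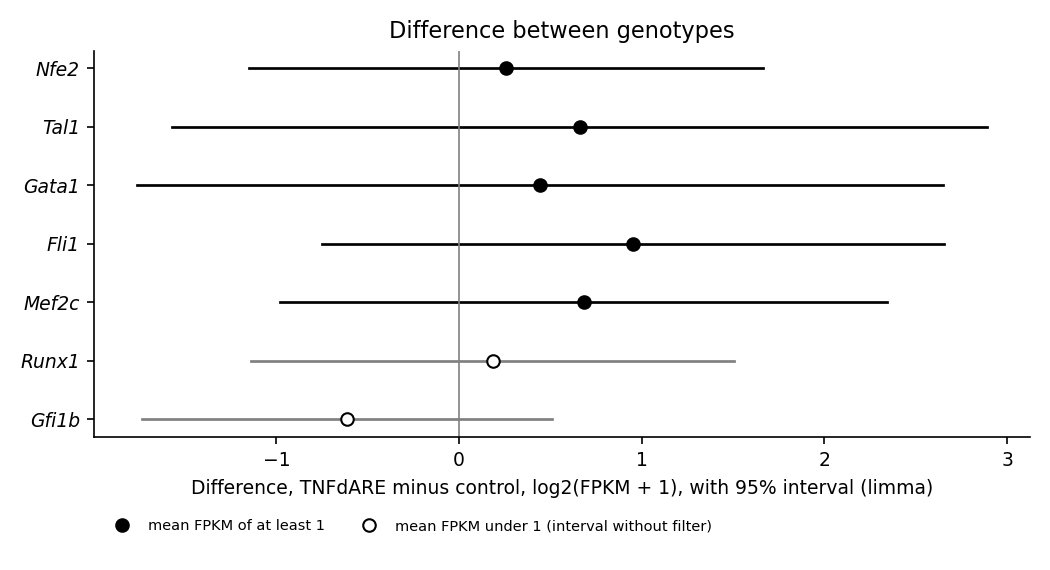
Difference between genotypes for each factor on the log2(FPKM + 1) scale, TNFdARE minus control, with the 95% interval from limma; open points are the 2 factors with a mean FPKM under 1, whose interval comes from the fit without a filter. All 7 intervals include 0, and the narrowest among the tested factors, that of Nfe2, runs from -1.15 to 1.66.

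Leaving out TNFdARE mouse 1 or 4 turned the sign of 5 of the 7 differences. Without TNFdARE mouse 1 the difference of Tal1 was -0.50, that of Nfe2 -0.24 and that of Mef2c -0.01, and that of Fli1 was 0.29. Without TNFdARE mouse 4 that of Gata1 was -0.48 and that of Runx1 -0.20. Control mice also turned a sign, since Gata1 was at -0.12 without control mouse 3 and Nfe2 at -0.04 without control mouse 2. Runx1 was at -0.04 without control mouse 1 or control mouse 2. Gfi1b and Fli1 kept their sign with any 1 mouse left out, Gfi1b between -0.89 and -0.25. With TNFdARE mice 1 and 4 both left out, a choice made after seeing the data, the difference was -0.67 for Nfe2, larger in size than with all mice, 0.20 for Gata1 and -0.01 for Tal1. It was 0.56 for Fli1, 0.11 for Mef2c, 0.05 for Runx1 and -0.40 for Gfi1b.

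**Figure D3:**
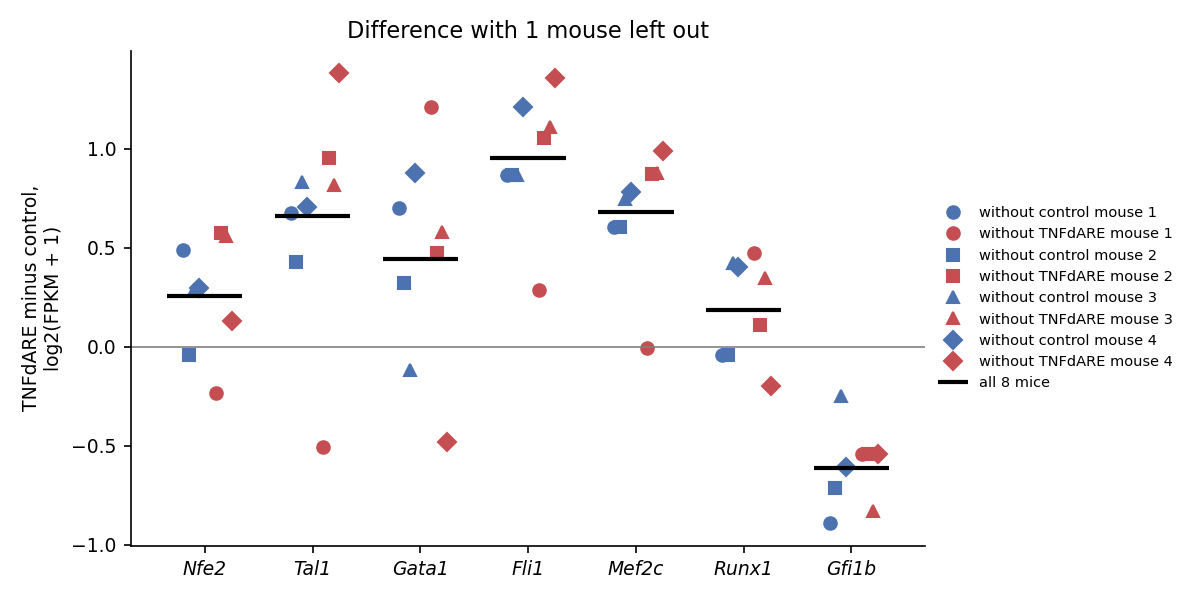
Difference between genotypes on the log2(FPKM + 1) scale after leaving out each mouse in turn (points) and with all 8 mice (black lines). Points of Nfe2, Tal1, Gata1, Mef2c and Runx1 lie on both sides of 0; Fli1 stays between 0.29 and 1.35 and Gfi1b between -0.89 and -0.25.

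Within sexes, each with 2 mice per group, the difference of Tal1 was 2.27 in males and -0.95 in females, and TNFdARE mouse 1 is 1 of the 2 TNFdARE males. That of Nfe2 was 0.95 in males and -0.44 in females, and that of Gata1 was 0.12 in males and 0.77 in females. That the genotype difference depended on sex was not shown for any of the 5 tested factors (limma genotype-by-sex interaction term, smallest adjusted p = 0.92).

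Libraries that listed the fewest genes also listed few of the factors, though not in strict order. Control mouse 1, TNFdARE mouse 4 and TNFdARE mouse 1, with 1479 genes or fewer above 0, held 3, 3 and 4 of the 7 factors. Control mice 2 and 3, with 2196 and 2302 genes, held 4 and 6. The libraries of control mouse 4 and TNFdARE mouse 3, with 2742 and 4917 genes, held all 7, and TNFdARE mouse 2, with 3187 genes, held 6. Levels ran the other way in TNFdARE mouse 1, where the median of all values above 0 was 7.20 FPKM against 0.405 FPKM in TNFdARE mouse 3. The Fli1 value of 8.20 FPKM in TNFdARE mouse 1 exceeded 54.5% of the genes above 0 in that library, and the Fli1 value of 0.659 FPKM in TNFdARE mouse 3 exceeded 60.2% of those in its own. For Mef2c the corresponding shares were 48.8% and 41.2%, and 14.0% to 27.0% in the other 3 libraries that listed it. Fli1 exceeded 47.4% and 48.7% in the other 2 that listed it. For Tal1 the shares in TNFdARE mice 1 and 3 were 89.1% and 80.7%, against 59.7% in TNFdARE mouse 2 and 27.0% to 63.0% in the controls. For Nfe2 the shares in TNFdARE mice 1 and 3 were 90.3% and 93.3%. The part of this listing in the differences between genotypes was not tested.

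**Figure D4:**
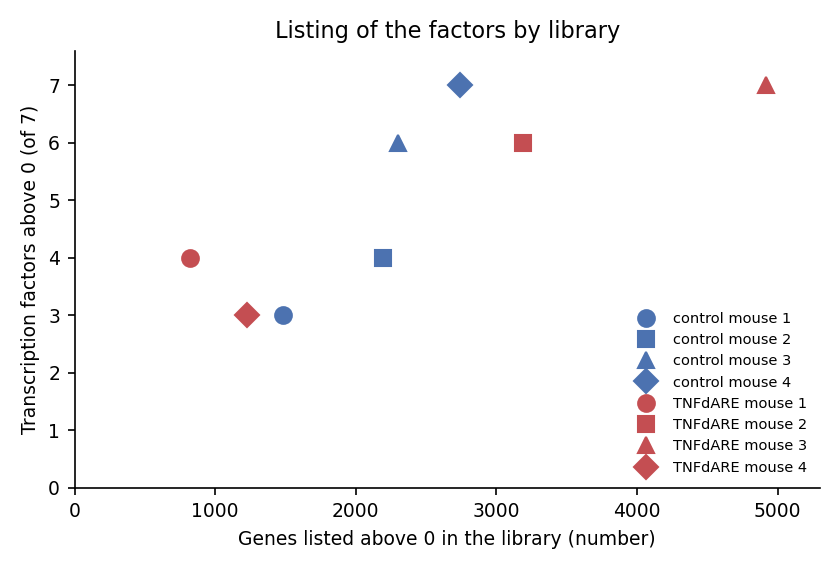
Number of the 7 factors above 0 in each library (vertical axis) against the number of genes above 0 in it (horizontal axis), 1 point per mouse. The 3 libraries with the fewest genes hold 3 or 4 factors, those with 2742 and 4917 genes hold all 7, and the library between them, with 3187 genes, holds 6.

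Markers of other cells that make these factors were examined in the same libraries. The erythroid list, of which 30 of 32 genes were in the table and 12 were tested, summed to between 801 and 2249 FPKM in controls and between 1147 and 14767 FPKM in TNFdARE mice. Of its tested genes 6 had an unadjusted p under 0.05, all higher in TNFdARE platelets, where 1.76% of all tested genes did so (Hba-a1, Hba-a2, Hbb-bs, Hbb-bt, Alas2 and Fech), and 0 an adjusted p under 0.05 (limma), with Fech reaching the mean of 1 FPKM through the TNFdARE group (means 0.522 FPKM in controls and 4.28 FPKM in TNFdARE mice), while Klf1, Rhag, Rhd, Add2 and Trim58 were at 0 in all 8. The sum of 4 globin mRNAs was highest in TNFdARE mouse 4 (14556 FPKM), which also had the highest Gata1, and next in TNFdARE mouse 1 (6802 FPKM), in which Gata1 was at 0 and Tal1 highest. The list of 5 pan-leukocyte genes summed to between 26.5 and 47.3 FPKM in controls and between 8.05 and 32.3 FPKM in TNFdARE mice, most of it Laptm5. Laptm5 was between 26.5 and 34.5 FPKM in controls and between 8.05 and 31.0 FPKM in TNFdARE mice. Cd52 was at 10.2 FPKM in control mouse 3 and at 0.395 FPKM in TNFdARE mouse 3 and at 0 elsewhere, Coro1a was above 0 in 1 control mouse and 3 TNFdARE mice at no more than 2.65 FPKM, and Cd53 was above 0 only in TNFdARE mouse 2 (0.144 FPKM). Ptprc, S100a8, Cd79a, Cd3e and Spi1 were at 0 in all 8 libraries, as were 9 of 14 neutrophil, 8 of 11 monocyte and macrophage, 8 of 10 B cell and 7 of 12 T cell markers. The neutrophil list summed to at most 3.66 FPKM in controls and 10.3 FPKM in TNFdARE mice, and the monocyte and macrophage list to between 30.8 and 50.3 FPKM and between 12.0 and 36.1 FPKM, nearly all of it Lyz2. The B cell and T cell lists summed to at most 2.09 and 1.02 FPKM in controls and 0.366 and 1.50 FPKM in TNFdARE mice. The part of red cell RNA in the factors' values was not tested, and in bulk RNA fewer cells of a type cannot be told apart from less RNA per cell.

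Of 51 partners and other blood transcription factors, all in the table, 17 were at 0 in all 8 libraries and 5 were tested, 1 with a difference above 0 and 4 below, 0 of them with an unadjusted p under 0.05, against 4.50% of all genes tested. Their median difference was -0.46, against -0.30 over all genes tested, but Sp1, Lmo2 and Ssbp2 each reached the mean of 1 FPKM through 1 library of the group where they were higher, and without the filter the median was -0.05, so nothing is read from these signs. The partners at 0 throughout included Ldb1, which bridges TAL1 and GATA1 complexes, Cbfb, the partner of RUNX1, Mafk, a small partner of NFE2, and Kdm1a, the demethylase recruited by GFI1B. Gata2, the progenitor GATA factor that GATA1 replaces as MKs mature, was the only 1 of the 51 above 0 in all 8, at 5.12, 1.65, 2.10 and 0.564 FPKM in control mice 1 to 4 and 6.65, 0.346, 0.972 and 2.30 FPKM in TNFdARE mice 1 to 4. Gata2 was above Gata1 in control mouse 3 and in TNFdARE mouse 1, where Gata1 was at 0.128 and 0 FPKM, and below it in the other 6 libraries. Its difference between genotypes was -0.06 (standard error 0.76, adjusted p = 0.99, limma). Lmo2, the scaffold of the TAL1 complex, was at 8.14 FPKM in control mouse 4 and 0.350 FPKM in TNFdARE mouse 3 and at 0 in the other 6. Ssbp3, which protects LDB1 from degradation, was above 0 in 6 libraries, between 2.94 and 16.7 FPKM. Ssbp2 was above 0 in 2 libraries, with 11.8 FPKM in control mouse 2, and Sp1, a general activator, in 3, with 9.71 FPKM in TNFdARE mouse 1.

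Genes that these factors switch on in MKs include the main secreted and surface proteins of platelets. Of 30 such MK and platelet genes, 23 were above 0 in all 8 libraries (26.1% of all tested genes were), 13 had a mean above that of Nfe2, and the list summed to between 1556 and 1968 FPKM in controls and between 1443 and 1827 FPKM in TNFdARE mice. The 5 highest were Pf4 (325 FPKM), Ppbp (266 FPKM), Cd9 (150 FPKM), Myl9 (145 FPKM) and Tubb1 (103 FPKM), given as means over the 8 libraries. Of the 28 tested, 7 had a difference above 0 and 21 below, with a median of -0.36 against -0.30 over all genes tested. An unadjusted p under 0.05 was reached by 0 of them, against 4.50% of all genes tested, and an adjusted p under 0.05 by 0, against 0.00% (limma). Tubb1, the platelet β1-tubulin and a target of NFE2, was at 169, 123, 88.2 and 127 FPKM in control mice 1 to 4 and 24.4, 141, 111 and 39.0 FPKM in TNFdARE mice 1 to 4 (difference -0.98, standard error 0.56, adjusted p = 0.86, limma). The low Tubb1 values were those of TNFdARE mice 1 and 4, in which Nfe2 was at 55.4 and 25.3 FPKM, the highest and the third highest values of that factor. Control mouse 1, whose Nfe2 level of 26.4 FPKM lay between these, had the highest Tubb1 (169 FPKM). A relation between Nfe2 and Tubb1 was not tested, and none is read from these values. Gp1ba, whose promoter is shown above, ranged from 6.39 to 15.0 FPKM with a difference of -0.01. Pf4 (platelet factor 4), Myl9 (myosin light chain) and Gp9 (glycoprotein IX) had differences of 0.52, 0.53 and 0.74, each smaller than 2 standard errors. Clec1b, the podoplanin receptor CLEC-2, was the only tested gene of the list whose groups did not overlap, from 14.8 to 47.1 FPKM in controls and from 49.9 to 61.2 FPKM in TNFdARE mice (difference 0.76, adjusted p = 0.86, limma), and the groups did not overlap for 3.32% of all genes tested.

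**Figure D5:**
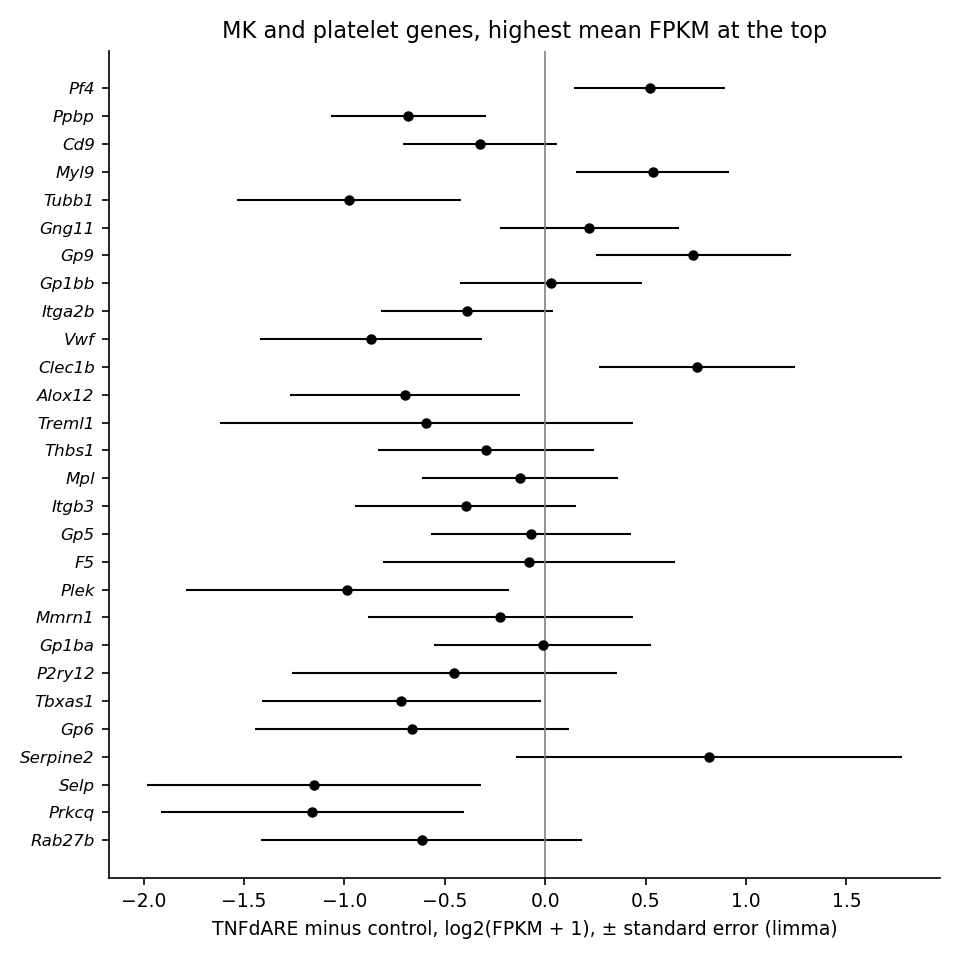
Difference between genotypes, TNFdARE minus control on the log2(FPKM + 1) scale, for the 28 tested MK and platelet genes, with the standard error from limma as bars and the highest mean FPKM at the top. Differences run from -1.16 (Prkcq, a platelet protein kinase C) to 0.82 (Serpine2, a protease inhibitor), and 0 of the 28 genes had an unadjusted p under 0.05.

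For the 3 factors above 0 in at least 6 libraries with a mean of at least 1 FPKM, the genes with the most similar pattern were taken from 948 others by Pearson's r on log2(FPKM + 1) over the 8 libraries, as a description of the best matches among many and without a test. Nearest to Nfe2 was ENSMUSG00000037072 (r = 0.96, Spearman's rho 0.98), the selenoprotein gene Selenof, whose symbol appears as a date in the table. It was followed by Ube2v1 (r = 0.87, rho 0.90) and Gadd45gip1 (r = 0.85, rho 0.67). Without the 2 libraries farthest from the median of Nfe2, r was 0.92, 0.65 and 0.55 for these 3 genes. Nearest to Gata1 were Ube3b (r = 0.94, rho 0.87), Cox5a (r = 0.94, rho 0.87) and 4930558J22Rik (r = 0.88, rho 0.76), with r of 0.81, 0.91 and 0.52 without TNFdARE mice 1 and 4. Nearest to Tal1 were Atp5a1 (r = 0.94, rho 0.74), Fam32a (r = 0.90, rho 0.50) and Serpine2 (r = 0.90, rho 0.62). Without TNFdARE mice 1 and 4 these became 0.87, 0.02 and 0.11, so the likeness of Fam32a and Serpine2 to Tal1 rested on those 2 libraries.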

How the data were processed

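Platelet RNA of 4 TNFdARE mice and 4 littermate controls was sequenced by the authors as 150 bp reads and processed as in the references they cite, with GSNAP for alignment and Cufflinks for abundance. The submitters' processing notes name Cufflinks and mm10; versions and annotation are not given in the sources used here. The deposited values, 1 for each gene in each mouse, were read here as FPKM because of Cufflinks and because the columns sum to different totals. Columns were matched to mice by library name, and 0 value columns were left unmapped. Read numbers are unknown, so no count model was applied and no intervals for counting error are given. p-values measure the spread between these mice.

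Genes whose mean reached 1 FPKM were compared on log2(FPKM + 1), which understates changes of low genes, with limma 3.58.1 in R 4.3.3 (variance trend, Benjamini-Hochberg adjustment). Simulated data for TNFdARE against control with 1534 genes, 200 of them changed, gave 62.5% recovered with 6 false calls for a log2 change of 3, and 0% for 1. The simulated noise was normal and independent between genes, without the zeros and isolated values of these data, so the shares recovered may differ for them. Single genes were compared with exact permutation tests. Alternatives were pseudocounts of 0.1 and 5, no filter, a mean FPKM of at least 5, quantile and median-of-ratios scaling, rescaling without AY036118, sample weights, no trend, sex as a covariate, a replicate block and leaving out each mouse. The factors, gene lists and naming rule (all factors, list genes with an unadjusted p under 0.05, the 5 highest of the partner and target lists, and the 3 most similar genes) were chosen with earlier results of these data known. Other list genes named for their role (Ldb1, Cbfb, Mafk, Kdm1a, Gp1ba, Gp9, Prkcq, Serpine2, Clec1b, the leukocyte genes and the markers at 0) were picked after their values were seen. Positions are from GENCODE M21 (GRCm38, the assembly of mm10), which held 42384 of the 43548 identifiers. Promoters are from RefSeq, which held 5 of the 7 factors and 24 of the 30 MK and platelet genes. Transcripts were compared with BLAST 2.17.0. Figures were drawn with matplotlib 3.10.9.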

Additional observations from a re-analysis of the deposited data

Results flagged for a closer look

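Of 14 sets of 4 mice (7 factors in 2 genotypes), 6 contained a value isolated from the rest. The nominal rate of about 1 in 20 would give 0.7, but it assumes normal values without zeros, and by the same rule 23.0% of the 3068 such sets over all tested genes contained an isolated value. That share leaves out genes under the mean of 1 FPKM, among them Runx1 and Gfi1b, so it is not a like background for all 14 sets. The sets are not independent, because 3 of the 6 isolated values come from the same library. That library, TNFdARE mouse 1, was isolated at the top in Tal1 (distance to the next value 0.955 of the span of the set), Mef2c (0.961) and Fli1 (0.893). Gata1 was isolated at the top in TNFdARE mouse 4 (0.889). Gfi1b was above 0 in TNFdARE mouse 3 alone of its genotype (ratio 1), and Fli1 in control mouse 4 alone of its genotype (ratio 1), so these distances depend on which libraries listed the transcript.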

How the results depend on the processing

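An adjusted p under 0.05 was reached by 0 factors and 0 genes of the table in all 20 alternatives, and an unadjusted p under 0.05 by 0 factors; over the 101 of 136 alternative values of the factors that have a p, the smallest adjusted p was 0.61. With 1 mouse of each genotype per number a replicate block cannot move a difference (0.26 for Nfe2, 0.44 for Gata1, 0.66 for Tal1), only its error; with it 64 genes had an unadjusted p under 0.05 and 0 an adjusted one, and the mouse numbers did not pair the samples (correlations of same-numbered mice at most 0.060). Signs turned with sample weights for Nfe2 (-0.48) and Runx1 (-0.21), and without TNFdARE mice 1 and 4, chosen after seeing the data, for Nfe2 (-0.67) and Tal1 (-0.0069). Sample weights also moved Gata1 to 0.0081, Tal1 to 0.096, Mef2c to 0.081, Fli1 to 0.37 and Gfi1b to -0.38. With a pseudocount of 0.1 Fli1 was at 2.27, Gfi1b at -1.83 and Tal1 at 0.15. A pseudocount of 5 gave 0.38, -0.19 and 0.62 for the same genes. With each mouse left out in turn the differences ranged from -0.48 to 1.21 for Gata1, -0.24 to 0.57 for Nfe2, -0.50 to 1.38 for Tal1, -0.20 to 0.47 for Runx1 and -0.0090 to 0.99 for Mef2c. At the unadjusted threshold the count over the table, 69, became 36 with a mean FPKM of at least 5, 111 with sample weights and 46 to 76 with 1 mouse left out. The median difference of the partner list, -0.46, was -0.29 with a pseudocount of 5, -0.053 without a filter and -0.50 to 0.015 with 1 mouse left out. That of the MK and platelet genes, -0.36, was -0.0034 with sample weights and 0.12 without TNFdARE mice 1 and 4. It was -0.20 with a pseudocount of 5, -0.13 with quantile scaling and -0.50 to -0.12 with 1 mouse left out. That of the erythroid list, 1.57, was 0.15 without a filter, which adds 12 low genes, and 0.58 without TNFdARE mice 1 and 4. The causes were not tested. Nfe2 over Tal1 ranged from 2.04 to 2.70 with 1 mouse left out, where 7 libraries cannot reach an adjusted p below 0.094 unless other pairs also pass, so that loss says nothing about stability. Tal1 over Gata1 ranged from -1.09 to 0.44, Mef2c over Runx1 from -0.65 to 0.063, and Gata1 over Fli1 from 0.81 to 2.00, passing the threshold without TNFdARE mouse 1. The unknown depth limits all 7 factors, and listed zeros all but Nfe2.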
